A study of Mus musculus with 2 samples.

Results

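The Dlx genes are 6 homeobox genes, Dlx1 to Dlx6, that lie in the mouse genome as 3 pairs, Dlx1-Dlx2, Dlx3-Dlx4 and Dlx5-Dlx6. They were chosen by name, and make up 6 of the 21728 protein-coding gene names of the annotation (GENCODE vM21, build mm10). Open chromatin was mapped in the midbrain of mouse embryos of the strain B6NCrl at embryonic day 11.5 by DNase-seq. This assay treats nuclei with the nuclease DNase I and sequences the cut ends, which gather where DNA is accessible. The only group held 2 biological replicates, each from pooled male and female embryos with no treatment named, and there was no second tissue, control or input, so the comparisons were between replicates and between places in the genome. Replicate 1 was sequenced on HiSeq and NextSeq instruments and replicate 2 on HiSeq instruments alone, so instrument and replicate cannot be told apart.

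Each Dlx protein binds DNA through a homeodomain, whose short core sequence is written TAATTA. The genes of a pair are transcribed towards each other and share regulatory sequence, much of it in the stretch between them. Dlx1, Dlx2, Dlx5 and Dlx6 are known for the GABAergic interneurons of the ventral forebrain and, with Dlx3 and Dlx4, for the pharyngeal arches. Dlx3 also acts in skin, hair, bone and placenta, and Dlx5 and Dlx6 in the limb. The midbrain is not among the regions these genes are best known for. Its own GABAergic neurons are specified through other factors such as Gata2, Tal1 and Helt.

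The deposited files list peaks, nearly all 150 bp wide, each with a signal value of the authors' own on a linear scale with no stated normalization, and hotspots, which are regions of raised cutting. On chromosomes 1 to 19 and X there were 305818 peaks in replicate 1 and 454408 in replicate 2, with median signals of 18 and 8. Read depth is unknown, so signals are compared within a list, mainly as percentiles of that list, or across both lists where that is said. Comparisons across lists are of the same sites, or of the highest peaks within 500 bp of a gene's start sites. A peak counted for a gene when it lay within 500 bp of any of its transcription start sites (TSSs). A consensus site is a merged region that holds overlapping peaks of both replicates.

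The sequences below show what the open sites of the Dlx pairs look like, all read 5′ to 3′ on the plus strand of the reference genome (mm10) and cut to the part outside annotated exons. The stretches beside the start sites of Dlx2 and Dlx6 come first, because both belong to strong consensus sites and hold many CpG dinucleotides, which are in capitals.
Dlx2 start, chr2:71546755-71546905: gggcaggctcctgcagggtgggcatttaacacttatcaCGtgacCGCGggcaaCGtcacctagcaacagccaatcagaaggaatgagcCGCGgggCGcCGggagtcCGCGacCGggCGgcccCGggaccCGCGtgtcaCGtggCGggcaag
Dlx6 upstream, chr6:6862716-6862985: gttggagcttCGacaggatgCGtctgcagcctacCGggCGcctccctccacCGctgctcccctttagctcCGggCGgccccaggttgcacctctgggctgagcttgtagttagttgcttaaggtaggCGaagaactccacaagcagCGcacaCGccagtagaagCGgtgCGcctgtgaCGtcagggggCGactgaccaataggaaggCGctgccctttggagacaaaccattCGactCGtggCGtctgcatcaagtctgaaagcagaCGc
These stretches held 17 CpGs in 151 bp and 19 in 270 bp. Sites that hold the homeodomain core follow, with TAATTA in capitals. The first lies in an intron of Dlx1 and holds it at 2 places. The second lies between Dlx1 and Dlx2, where the E-box CATCTG is in capitals as well. That E-box lies outside the central 150 bp searched for motifs below, so the site is not among the CATCTG sites counted there.
Dlx1 intron, chr2:71530476-71530705: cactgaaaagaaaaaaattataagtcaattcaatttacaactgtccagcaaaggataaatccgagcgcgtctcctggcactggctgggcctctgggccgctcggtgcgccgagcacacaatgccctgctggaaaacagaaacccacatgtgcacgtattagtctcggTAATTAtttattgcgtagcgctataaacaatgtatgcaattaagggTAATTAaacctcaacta
Dlx1-Dlx2 with TAATTA, chr2:71538036-71538265: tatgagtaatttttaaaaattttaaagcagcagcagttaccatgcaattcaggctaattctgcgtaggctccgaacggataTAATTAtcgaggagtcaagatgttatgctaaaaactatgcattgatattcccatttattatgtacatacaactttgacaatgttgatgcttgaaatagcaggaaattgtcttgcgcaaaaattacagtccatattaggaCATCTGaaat
The strongest shared site between Dlx1 and Dlx2 held 23 CpGs in 190 bp, and the site printed after it is shown for its large gap between replicates, with signals of 21 and 50. CpGs are in capitals in the first of these and the E-box CAGCTG in the second.
Dlx1-Dlx2 strongest, chr2:71543056-71543245: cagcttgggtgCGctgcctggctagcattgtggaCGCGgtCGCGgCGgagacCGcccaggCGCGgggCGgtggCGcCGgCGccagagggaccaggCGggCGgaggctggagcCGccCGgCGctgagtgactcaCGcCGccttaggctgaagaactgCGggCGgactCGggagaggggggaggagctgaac
Dlx1-Dlx2 large gap, chr2:71540636-71540845: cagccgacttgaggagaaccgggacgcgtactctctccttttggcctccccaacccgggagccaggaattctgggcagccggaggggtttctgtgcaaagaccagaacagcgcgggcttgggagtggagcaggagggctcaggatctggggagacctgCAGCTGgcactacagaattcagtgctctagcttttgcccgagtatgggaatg
The last pair are the only consensus site from Dlx3 to Dlx4, with CAGCTG in capitals, and the site between Dlx5 and Dlx6 with the highest replicate 2 signal there, with CpGs in capitals.
Dlx3-Dlx4 only site, chr11:95126556-95126765: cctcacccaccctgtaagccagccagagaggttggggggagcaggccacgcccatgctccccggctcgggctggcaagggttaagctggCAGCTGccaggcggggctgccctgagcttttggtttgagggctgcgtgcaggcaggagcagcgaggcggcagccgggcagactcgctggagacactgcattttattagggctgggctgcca
Dlx5-Dlx6 between, chr6:6874496-6874685: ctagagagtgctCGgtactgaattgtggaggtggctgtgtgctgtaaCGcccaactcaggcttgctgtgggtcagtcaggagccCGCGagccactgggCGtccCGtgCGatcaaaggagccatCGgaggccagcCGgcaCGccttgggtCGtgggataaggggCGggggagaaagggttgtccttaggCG

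At their start sites, 4 of the 6 Dlx genes had a peak in both replicates, namely Dlx2, Dlx3, Dlx5 and Dlx6. Dlx1 and Dlx4 had one in replicate 2 only. Each pair therefore had at least 1 gene with an open start site in both replicates. Over all protein-coding genes, 65.5% had a TSS peak in both replicates, 68% in replicate 1 and 69.5% in replicate 2, so 4 of 6 is near the genome's share. Genes as rich in CpG around the start site as the Dlx genes, which fall in deciles 6 to 8 of the observed to expected CpG ratio, had a peak in both replicates in 93.5% to 97.9% of cases. No test was run on these counts, because 1 group of 2 replicates gives none.

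**Figure D1:**
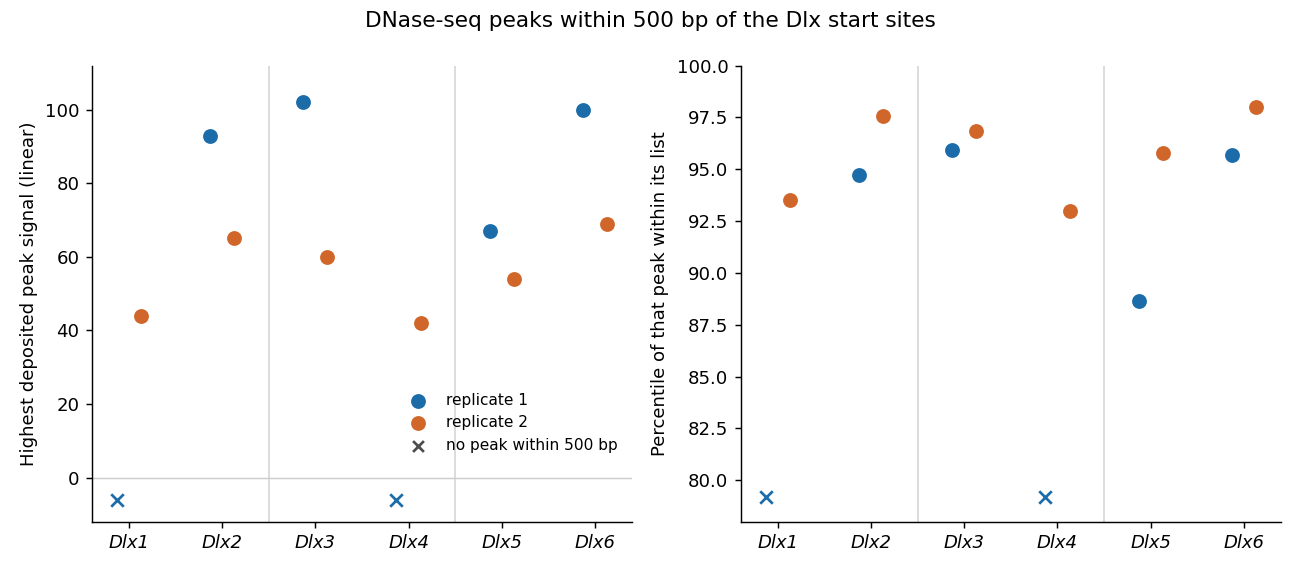
Highest deposited signal of a peak within 500 bp of each Dlx start site (left, linear scale) and the percentile of that peak within its own list (right), by replicate. Crosses mark Dlx1 and Dlx4 in replicate 1, which had no such peak, and the other 10 values lie between signals of 42 and 102.

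Dlx1 encodes a homeodomain factor of interneuron maturation, and its start site lies at chromosome 2, position 71528113, on the plus strand. It had no peak within 500 bp in replicate 1. In replicate 2 it had peaks on both sides of the start, with signals of 39 and 44, the stronger at percentile 93.5 of its list. The nearest replicate 1 peak began 1163 bp downstream with a signal of 58 and belonged to a consensus site with signals of 58 and 59. The next consensus site, at chromosome 2, positions 71529496 to 71529765, had signals of 106 and 58 and lay in annotated untranslated sequence of Dlx1. With start sites of all annotated transcripts in place of the basic set, Dlx1 had a peak in both replicates. The count of Dlx genes was then 5, beside 67.4% of all protein-coding genes.

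Dlx2 works beside Dlx1 in interneuron progenitors, and starts on the minus strand at position 71546754 of the same chromosome. Its start-site signals were 93 in replicate 1 and 65 in replicate 2, at percentiles 94.7 and 97.6 of the lists. The peaks overlapped, and the consensus site ran across the start itself. The hotspot over the start was 646 bp wide in replicate 1 and 13615 bp wide in replicate 2. These widths depend on where calls are split. Another replicate 1 hotspot, at positions 71546133 to 71546438, ended a few bp away. Hotspots covered 84.3% of the pair in replicate 1 and 99.5% in replicate 2.

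Dlx3, the member best known from skin, hair and placenta, starts on chromosome 11 at position 95120119 on the plus strand. Its signals were 102 and 60, at percentiles 95.9 and 96.9. The peaks of the replicates lay side by side without overlap. The gene thus had a peak in both replicates but no consensus site at its start.

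Dlx4 had the least signal of the 6 genes. It starts on the minus strand at position 95146263, and in replicate 1 the nearest peak was 19498 bp away. In replicate 2 it had 2 peaks within the window, with signals of 42 and 38, and a hotspot of 4930 bp lay over the start. Replicate 2 also had 10 peaks in the body of Dlx4, where replicate 1 had 0.

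Dlx5, which acts in bone, limb and forebrain, starts on chromosome 6 at position 6882085 on the minus strand. Its signals were 67 and 54, at percentiles 88.6 and 95.8. This was the weakest of the 4 start sites shared by the replicates in each list. The hotspot over the start had nearly the same width in both replicates, 4183 and 4259 bp.

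Dlx6, the partner of Dlx5 in arch and limb, starts at position 6863334 of the same chromosome on the plus strand. Its signals were 100 and 69, at percentiles 95.7 and 98.0, and the strongest peaks lay upstream of the start in replicate 1 and downstream in replicate 2. With a window of 150 bp in place of 500 bp, Dlx6 had no peak in either replicate. The genes with a peak in both were then Dlx2, Dlx3 and Dlx5, beside 59.1% of all protein-coding genes. A hotspot over or beside the start was 340 bp wide in replicate 1 and 4638 bp in replicate 2.

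Against other genes with an accessible start site, the Dlx signals were low to middling. Among genes with a TSS peak in the same replicate, Dlx2 stood at percentiles 32.2 and 44.5, Dlx3 at 39.2 and 36.9, Dlx5 at 19.4 and 29.4, and Dlx6 at 37.5 and 51.0. Dlx1 and Dlx4 stood at 19.7 and 18.2 in replicate 2. The median signal of genes with a peak in both replicates was 113 in replicate 1 and 70 in replicate 2, above every Dlx value in the same list.

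The other genes whose start sites lay in the spans had higher signals in most cases. Metap1d, a mitochondrial methionine aminopeptidase upstream of Dlx1, had signals of 129 and 84. Pdk2, a pyruvate dehydrogenase kinase near Dlx3, had 130 and 75, and Sdhaf3, an assembly factor of succinate dehydrogenase near Dlx5, had 131 and 91. The integrin gene Itga3 had 69 and 62, within the range of the Dlx genes. Among antisense transcripts of the pairs, Dlx1as had highest signals of 31 and 44 near its start sites, but these came from different places. The 44 belongs to the replicate 2 peak also counted for the Dlx1 start. The consensus site at the 5′ end of Dlx1as had signals of 31 and 27. Dlx4os and Dlx6os1 had a peak in replicate 2 only, with 43 and 27.

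The homeobox genes whose start-site percentiles in both replicates were nearest to each Dlx gene, among 88 listed, were of many kinds. The measure was the Euclidean distance over the 2 replicates, a gene without a peak counting as 0. Dlx2 was nearest to Emx2 (92 and 68) and Barhl2 (95 and 63), and Dlx3 to Pitx3 (100 and 58) and En1 (104 and 58). Dlx5 was nearest to Emx1 (66 and 59), and Dlx6 to Vax2 (103 and 70) and Otx1 (99 and 76). Dlx1 and Dlx4, open in replicate 2 only, both had Nkx2-9 as a neighbour, with a signal of 38 there, and Dlx4 also had Lmx1b, with 37.

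Each pair was then taken with 100 kb on both sides. The span of Dlx1-Dlx2 was chr2:71428113-71646754, that of Dlx3-Dlx4 chr11:95020119-95246263 and that of Dlx5-Dlx6 chr6:6763334-6982085. Dlx1-Dlx2 held 73 peaks in replicate 1 and 101 in replicate 2 (87.0 ± 19.8, SD, n = 2). Dlx5-Dlx6 was close to this, with 67 and 110 (88.5 ± 30.4, SD, n = 2). Dlx3-Dlx4 differed most between replicates, with 35 and 133 (84.0 ± 69.3, SD, n = 2), so the peak counts of the 3 spans did not differ beyond the spread between replicates.

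**Figure D2:**
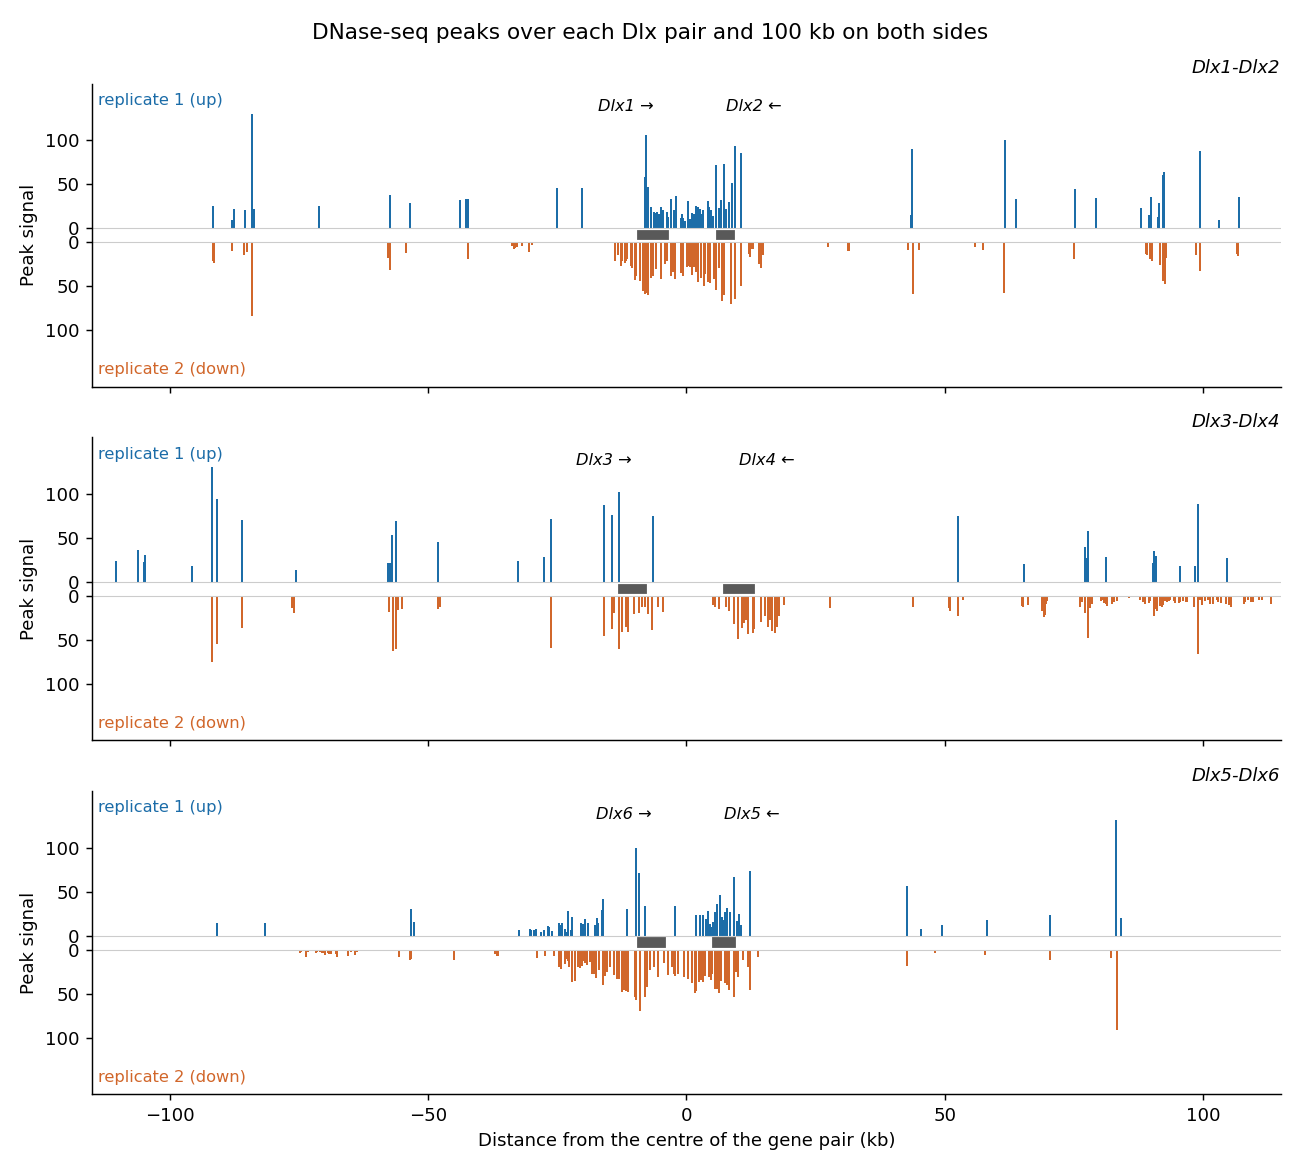
Deposited signal of every peak (vertical lines, linear scale) over each Dlx pair and 100 kb on both sides, against the distance in kb from the centre of the pair, with replicate 1 upwards, replicate 2 downwards and genes as grey bars. Peaks crowd at Dlx1-Dlx2 and around Dlx5-Dlx6 in both replicates, and at Dlx3-Dlx4 mainly in replicate 2.

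There were 41 consensus sites over Dlx1-Dlx2, 36 over Dlx5-Dlx6 and 21 over Dlx3-Dlx4. Per 100 kb these were 18.8, 16.5 and 9.29 sites, at percentiles 97.3, 94.6 and 70.8 among 13390 pairs of neighbouring protein-coding genes, whose median was 6.32. The order of the pairs was not stable. Merged sites of replicate 1 alone numbered 70, 62 and 33 over Dlx1-Dlx2, Dlx5-Dlx6 and Dlx3-Dlx4, and those of replicate 2 alone 88, 102 and 118. With hotspots in place of peaks the shared sites numbered 15, 17 and 16, and with 200 kb flanks 52, 39 and 47. Of the replicate 1 peaks, 58.9% (95% Wilson interval 47.4% to 69.5%) overlapped a replicate 2 peak over Dlx1-Dlx2, 60% over Dlx3-Dlx4 and 56.7% over Dlx5-Dlx6, where the share over the whole list was 30.8%. Of the replicate 2 peaks, 42.6%, 16.5% and 36.4% overlapped one of replicate 1, where the whole list had 21.7%. These intervals cover counting error only.

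The sites of Dlx1-Dlx2 lay mostly in the pair itself. From the start of Dlx1 to the start of Dlx2, a stretch of 18.6 kb, there were 26 consensus sites, or 13.9 per 10 kb, where the flanks held 15 sites, or 0.750 per 10 kb. Of the 26, 7 lay in Dlx1, 16 between the genes, 2 in Dlx2 and 1 across the Dlx2 start. The median distance from peak to peak was 400 bp in replicate 1 and 460 bp in replicate 2. The density stood at percentile 99.9 of all neighbouring pairs, whose median was 0.647 per 10 kb.

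Most sites between Dlx1 and Dlx2 were of modest signal in replicate 1. Over the 16 sites the lowest, median and highest signals were 10, 22.5 and 72 in replicate 1 and 27, 40 and 54 in replicate 2. The strongest was the CpG-rich site at positions 71543056 to 71543245, with signals of 72 and 54, which lies just beyond the 3′ end of Dlx2. The others had signals of at most 36 in replicate 1. The weakest in replicate 1 was the site with TAATTA printed above, with 10 and 28.

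In the flanks of Dlx1-Dlx2 the strongest site was the Metap1d promoter, and the next 2 by signal in replicate 1 lay beyond Dlx2 with no start site near. The site at chromosome 2, positions 71598936 to 71599125, lay 52277 bp from the Dlx2 start and had signals of 100 and 58. The site at positions 71581096 to 71581305, 34447 bp from that start, had signals of 90 and 59 and 25 CpGs in 210 bp. Both were stronger in replicate 1 than every site between the genes.

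Dlx5-Dlx6 had 14 consensus sites from gene to gene in 18.8 kb, or 7.47 per 10 kb, at percentile 99.5 of neighbouring pairs. They were uneven: 7 lay in Dlx5, 6 between the genes and 1 in Dlx6. A further 17 lay in the 100 kb before Dlx6, 16 of them in introns of the antisense transcript Dlx6os1, and 5 in the 100 kb after Dlx5. Beside the Sdhaf3 promoter, the highest sites of the span by mean percentile over the replicates were the site upstream of Dlx6, with 100 and 57, and a site beyond Dlx5 at positions 6885036 to 6885185, with 73 and 46. The 6 sites between the genes had signals of 34 and 30, 23 and 47, 23 and 36, 28 and 31, 10 and 34, and 16 and 27 in replicates 1 and 2.

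Dlx3-Dlx4 was the sparse pair. From Dlx3 to Dlx4, a stretch of 26.1 kb, 1 consensus site was found, or 0.382 per 10 kb, at percentile 34.0 of neighbouring pairs. That site, at chromosome 11, positions 95126556 to 95126765, had signals of 75 and 39 and lay shortly after the 3′ end of Dlx3. Replicate 1 had 2 peaks in the whole stretch and replicate 2 had 26, of which 8 lay in Dlx3, 8 between the genes and 10 in Dlx4. Upstream of Dlx3 the replicates had consensus sites at 1408 bp from its start (76 and 37), at 2908 bp (87 and 46) and at 13098 bp (71 and 59). Farther out, the Pdk2 promoter and a site 997 bp from its start (94 and 54) were the highest of this flank by mean percentile over the replicates, although 3 other sites had higher signals than 54 in replicate 2.

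Beyond Dlx4 the lists parted. The 100 kb after this gene held 14 peaks in replicate 1 and 91 in replicate 2, whose median signal was 9, close to the median of the whole list. The consensus sites there numbered 10. The strongest, at positions 95232056 to 95232245, had signals of 88 and 66.

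In each span the widest hotspot was wider in replicate 2 than in replicate 1, although within Dlx1-Dlx2 hotspots of replicate 1 were split by small gaps. Several of these gaps were of a few bp. The median hotspot width was higher in replicate 1 over Dlx1-Dlx2, Dlx3-Dlx4 and the whole list. Over Dlx5-Dlx6 it was higher in replicate 2. The widest hotspot of each span was 2318, 1152 and 4183 bp in replicate 1 for Dlx1-Dlx2, Dlx3-Dlx4 and Dlx5-Dlx6, and 13615, 4930 and 6177 bp in replicate 2. The widest, at chr2:71534016-71547630, ran from just past Dlx1 to beyond the Dlx2 start and held 24 peaks, and only 7 of the 375482 hotspots of replicate 2, itself included, were as wide or wider. Hotspots covered 84.3% of the Dlx1-Dlx2 pair in replicate 1 and 99.5% in replicate 2. They covered 40.4% and 96.1% of Dlx5-Dlx6, and 2.62% and 53.0% of Dlx3-Dlx4.

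Their q-values, given as −log10 with a ceiling of 100, say little about rank, since many are at the ceiling. Over the spans of Dlx1-Dlx2, Dlx3-Dlx4 and Dlx5-Dlx6, 20 of 51, 14 of 33 and 19 of 49 hotspots of replicate 1 were at the ceiling, where the whole list had 36.6%. In replicate 2 these were 16 of 49, 33 of 96 and 23 of 53, where the whole list had 29.6%.

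**Figure D3:**
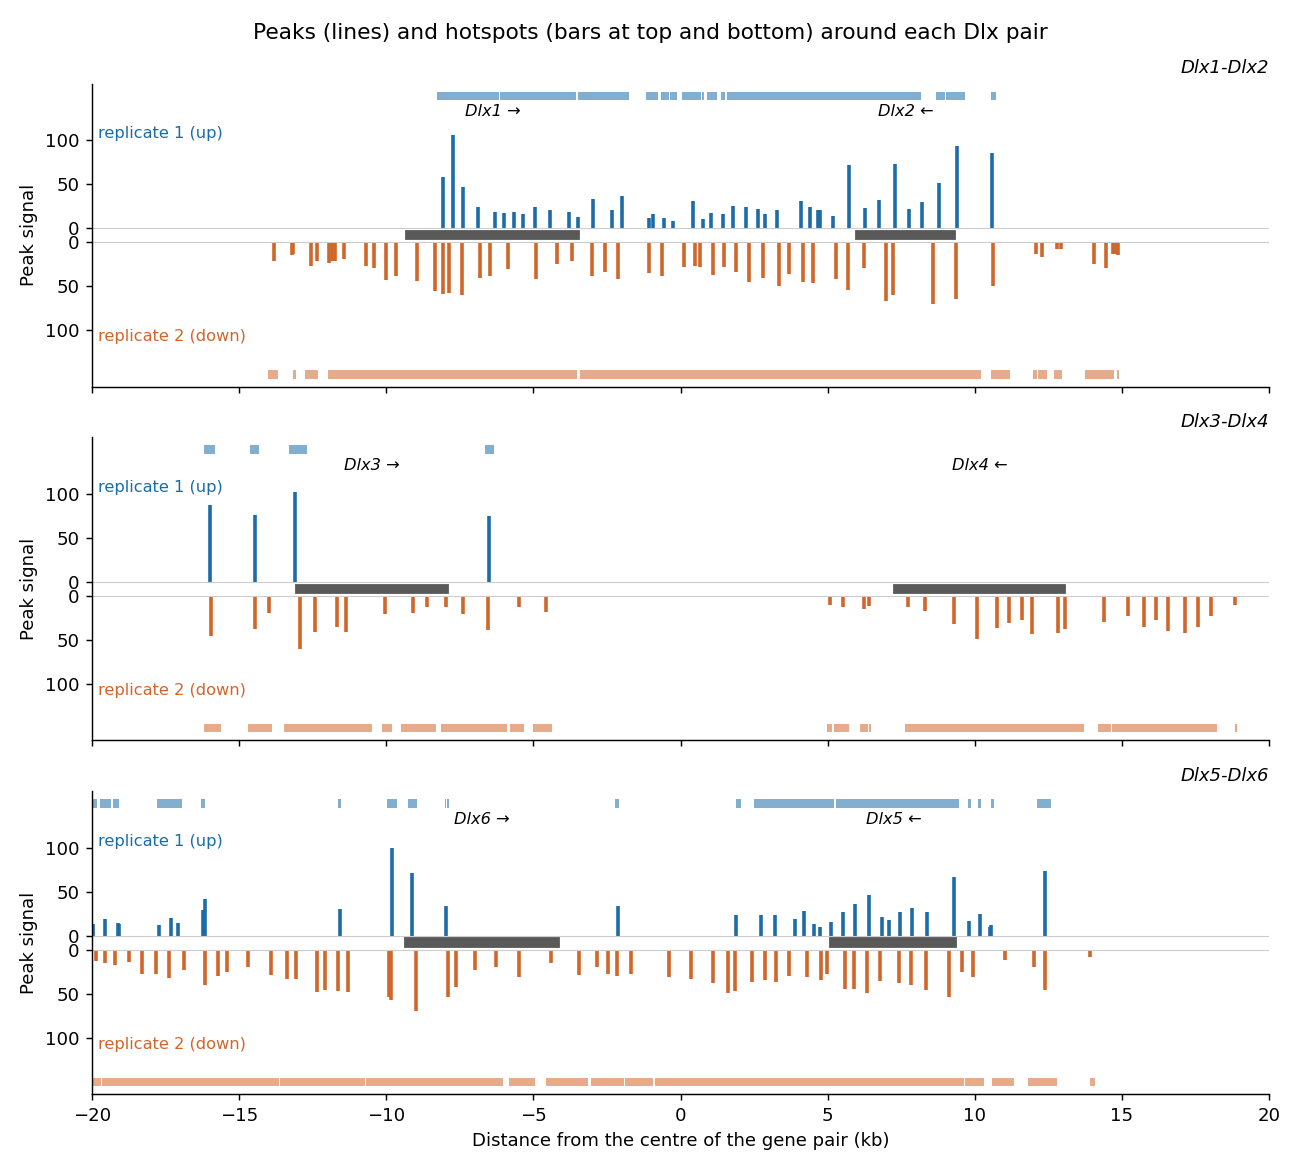
Peaks (vertical lines, deposited signal on a linear scale) and hotspots (bars at the top for replicate 1 and at the bottom for replicate 2) within 20 kb of the centre of each Dlx pair, with genes as grey bars and arrows for the strand. In replicate 2 hotspots cover 99.5% of Dlx1-Dlx2, 53.0% of Dlx3-Dlx4 and 96.1% of Dlx5-Dlx6.

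At the shared sites inside Dlx1-Dlx2 and Dlx5-Dlx6 replicate 2 mostly had the higher signal, a comparison of the same sites across lists that was chosen after the data were seen. It was higher in replicate 2 at 21 of 26 sites within Dlx1-Dlx2 and at 13 of 14 within Dlx5-Dlx6. Over all 89717 consensus sites, 10.4% had the higher signal in replicate 2. The medians were 24 and 41.5 within Dlx1-Dlx2 and 27 and 39 within Dlx5-Dlx6, where those of all sites were 49 and 27. At the single site within Dlx3-Dlx4 replicate 1 was higher.

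**Figure D4:**
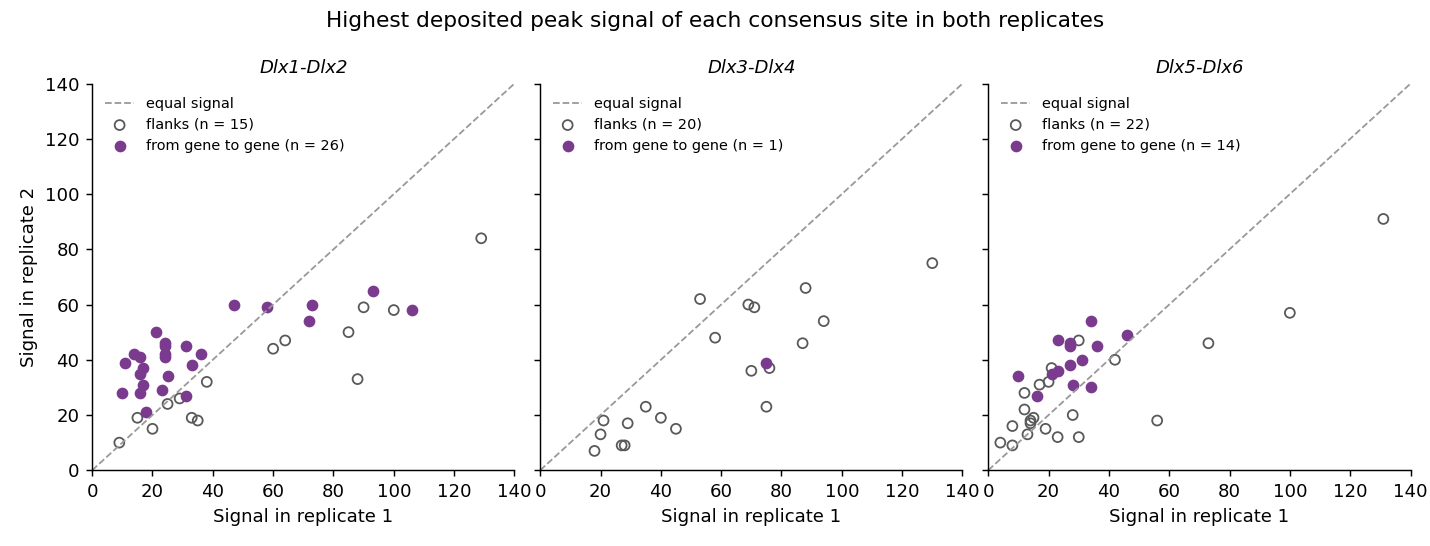
Highest deposited peak signal of each consensus site in replicate 1 (x axis) and replicate 2 (y axis), for sites from gene to gene (filled) and in the 100 kb flanks (open), with the line of equal signal dashed. Filled points lie above the line at 21 of 26 sites for Dlx1-Dlx2 and 13 of 14 for Dlx5-Dlx6.

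The flanks of the pairs behaved otherwise. Replicate 2 was higher at 2 of 15 flanking sites of Dlx1-Dlx2 and at 1 of 20 of Dlx3-Dlx4. Around Dlx5-Dlx6 it was higher at 12 of 22, and 11 of these lay in the 100 kb before Dlx6. The highest peak within 500 bp of the start was stronger in replicate 1 at all 4 Dlx genes with a peak in both. The peaks so compared overlapped between replicates only at Dlx2. By the same measure, 3.89% of genes with a TSS peak in both replicates had the higher one in replicate 2.

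Other values of the same measure give a background. Sites with a replicate 1 signal of 10 to 40 had the higher signal in replicate 2 in 19.6% of cases over the genome, and in 57.4% where they also lay in a replicate 2 hotspot of at least 2 kb. Both filters favour a higher value in replicate 2 by their construction. In the same signal range this held for 19 of 20 sites within Dlx1-Dlx2 and for 12 of 13 within Dlx5-Dlx6. Across deciles of GC content of the site the genome's share ranged from 8.90% to 13.2%. Sites from gene to gene in 9 other homeobox pairs had shares of 18.2% to 81.8%, with a median of 45.8%, the highest in Nkx2-1-Nkx2-9. These pairs differ in length, from 15.1 kb for Hmx2-Hmx3 (76.9%) to 1493.2 kb for Emx1-Vax2 (18.3%). The part of signal range, hotspot width, GC content and instrument in the pattern was not tested.

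Markers of the tissue and of its neighbours gave values to set beside it. All 8 telencephalon markers had a TSS peak in both replicates, and 5 of them, Gsx2, Lhx8, Nkx2-1 and Tbr1 included, had the higher signal in replicate 2, with medians of 39 and 56.5 over the list. Emx1 (66 and 59), Eomes (59 and 51) and Neurod6 (14 and 10) were higher in replicate 1. Among genes with a peak in both, replicate 2 was also higher at 2 of 4 surface epithelium markers, 8 of 23 genes of the forebrain GABAergic network and 4 of 12 midbrain GABAergic selectors, beside 3.89% of all genes. The same held for 20 of 81 listed homeobox genes, 6 of 20 Dlx partners in face, limb, skin and placenta, and 1 of 5 mesenchyme and neural crest markers. Each gene's value is its highest peak within 500 bp of a start site in that list, which need not be the same site in both. Lhx8, a LIM homeobox gene of the ventral forebrain, had 55 and 77. Of the 10 midbrain and isthmus markers 8 had a peak in both replicates, and 2 of these, Pax5 and Wnt1, were higher in replicate 2, with list medians of 89.5 and 59. Fgf8 and Lmx1b had a peak in replicate 2 only, with signals of 42 and 37. The ranges over telencephalon markers were 14 to 66 in replicate 1 and 10 to 77 in replicate 2. Whether cells of another region took part in the Dlx values was not tested, and in bulk tissue fewer open cells and less opening per cell cannot be told apart.

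Markers of other tissues in which Dlx genes act were set beside the 65.5% of all genes with a peak in both replicates. Of the 8 surface epithelium markers 4 had a peak in both replicates, and the keratin genes Krt14, Krt5 and Krt8 had none in either. Of 8 mesenchyme and neural crest markers 5 had both, while the collagen genes Col1a1 and Col3a1 had none. Epcam, an epithelial adhesion gene, had a signal of 41 in both replicates.

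Genes of the network, selector, partner and homeobox lists were mostly accessible at their start sites. Over all genes a TSS peak in both replicates was found in 6.07% of CpG ratio decile 1 and 98.8% of decile 10. The CpG ratio of the listed genes was not compared, so its part in their shares was not tested. In the list of the forebrain GABAergic network, 23 of 24 genes had a TSS peak in both replicates, beside 65.5% of all genes, and Sp8 had one in replicate 2 only. The highest was Ebf1 (133 and 70). Gad1 and Gad2, which make GABA, had 47 and 62, and 60 and 49. All 12 midbrain GABAergic selectors had a peak in both, led by Zfpm1 (137 and 84) and Nkx6-1 (123 and 75). Of 25 partners in face, limb, skin and placenta, 20 had both, led by Sox9 (131 and 69) and Msx1 (126 and 74). Amelx, Gcm1 and Krt14 had none, and Hand1 and Trp63 had a peak in replicate 2 only. Of the 88 homeobox genes 81 had both, led by Irx2 (137 and 76) and Irx5 (133 and 74), and Meox1 had none.

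Other homeobox pairs gave a rough scale for the density, since most are longer than the Dlx pairs. From gene to gene the 9 pairs ranged from 0.549 to 8.58 consensus sites per 10 kb with a median of 1.61. Hmx2-Hmx3, the highest, is also the shortest at 15.1 kb, and Emx1-Vax2, the lowest, is the longest at 1493.2 kb. Emx1-Vax2, Irx3-Irx5, Vax1-Emx2 and Nkx2-2-Nkx2-4 exceed the 100 kb limit of the neighbouring pairs. Nkx2-6-Nkx3-1, nearer to the Dlx pairs in length at 22.9 kb, had 2.19 sites per 10 kb. Dlx1-Dlx2, at 13.9, lay above all 9, Dlx5-Dlx6, at 7.47, above all but Hmx2-Hmx3, and Dlx3-Dlx4, at 0.382, below all 9. Over the span with flanks the other pairs ranged from 5.55 to 23.1 sites per 100 kb. Lbx1-Tlx1, at 23.1, was above every Dlx pair, Dlx1-Dlx2 at 18.8 included. Nkx2-1-Nkx2-9, at 16.7, was above the 16.5 of Dlx5-Dlx6. Widest hotspots of replicate 2 in these pairs reached 13.7 kb, at Vax1-Emx2, beside 13.6 kb at Dlx1-Dlx2.

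**Figure D5:**
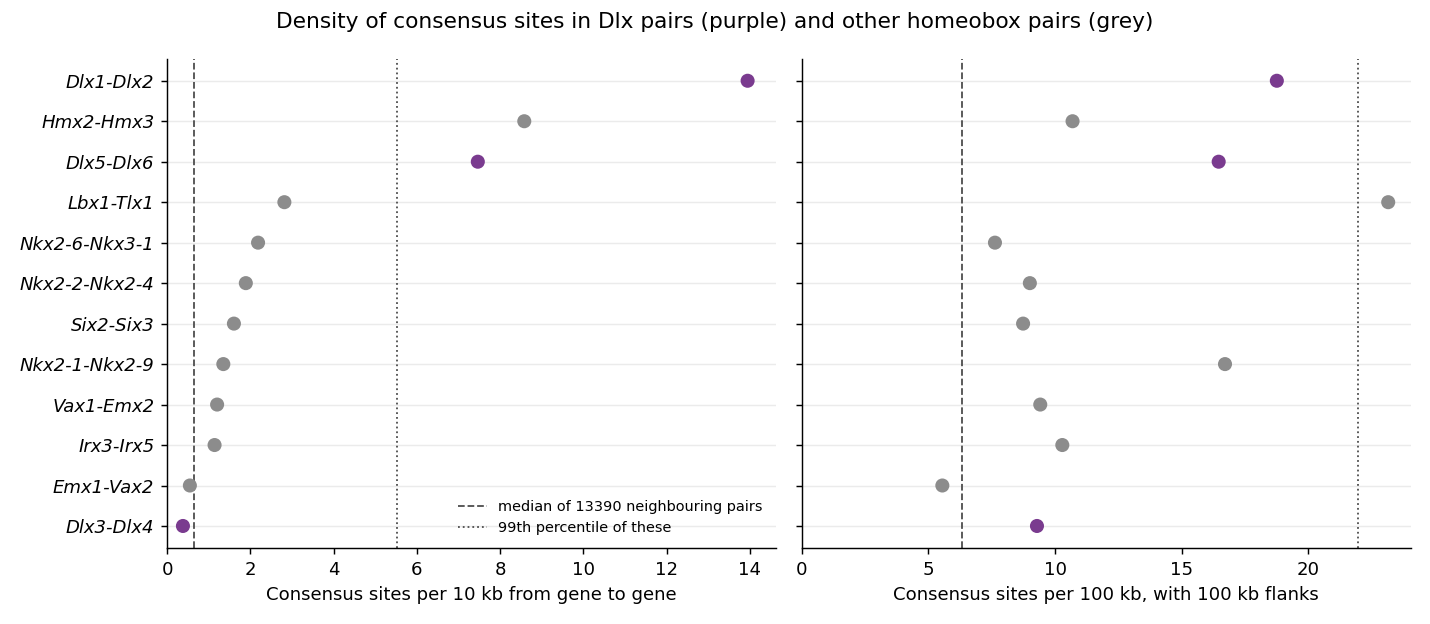
Consensus sites per 10 kb from gene to gene (left) and per 100 kb with 100 kb flanks (right) for the 3 Dlx pairs (purple) and 9 other homeobox pairs (grey), with the median and the 99th percentile of 13390 neighbouring gene pairs as dashed and dotted lines. Dlx1-Dlx2 is the highest on the left at 13.9 and Dlx3-Dlx4 the lowest at 0.382.

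Motifs were looked for on both strands in the central 150 bp of each site, and a match is only a match of letters. TAATTA, the homeodomain core, was present at 3 of the 98 consensus sites of the spans, beside 2.72% of all consensus sites. All 3 lay within the Dlx1-Dlx2 pair, at the Dlx1 intron, in untranslated sequence near the 3′ end of Dlx1 and between the genes. Of the 75 distal sites, over 2.5 kb from every start site, 2 held it, or 2.67% (95% Wilson interval 0.734% to 9.21%), beside 3.5% of all distal consensus sites.

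CAGCTG was at 10 of the 75 sites (genome 14.6%) and CATCTG at 12 (15%), both E-boxes read by proneural factors. ACAAAG, a core bound by Sox factors, was at 5 (16.8%), and GGATTA, bound by Otx factors, at 3 (4.73%). AGATAA, bound by GATA factors, was at 0 of 75, which allows a share of up to 4% by 3 counts of the total and 4.87% by the Wilson interval, where the genome's share was 5.7%. The POU octamer ATTTGCAT was at 1 (1.44%), and part of the CTCF motif at 3 (14.1%). The cyclic AMP response element TGACGTCA was at 0 of 75 (0.335%), though 1 of the 98 sites held it, the site upstream of Dlx6. No motif was searched by weight matrix, and no match says only that these letters are not in the window.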

How the data were processed

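DNase-seq was performed on 2 biological replicates of midbrain tissue. The deposited peaks carry a signal value, and the deposited hotspots carry a −log10 q-value and a score that was not used; the sources used here do not name the normalization, aligner, caller or depth, and the build is mm10 per the labels. Chromosomes 1 to 19 and X were kept. Peaks were assigned to the basic transcripts of GENCODE vM21, peaks overlapping by at least 1 bp were merged, and neighbouring pairs were protein-coding neighbours up to 100 kb in extent, each with 100 kb flanks. Percentiles are ranks within a list. Members, gene lists and comparisons were chosen with earlier results of these data known. Named genes were the Dlx genes, other coding genes with a start site in the spans, and in each list the 2 highest by mean percentile and up to 4 without a peak; some of these, and 1 homeobox pair, are not reported here. Other names, and the comparison of signals between replicates, were chosen after seeing the values. The symbol Tp63 was read as Trp63. Python 3.11.15, numpy 2.4.6, pandas 2.3.3 and scipy 1.17.1 were used. Scripts were tested on simulated data. With 1 group no test was possible, and replicates measure only their own spread.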

Additional observations from a re-analysis of the deposited data

How the results depend on the processing

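The 4 Dlx genes with a start-site peak in both replicates became 3 to 6 under the other windows, transcript sets, hotspots and single replicates. Under these settings the share of all protein-coding genes ran from 59.1% (150 bp window, 3 Dlx genes) to 69.5% (replicate 2 alone, 6 Dlx genes).
With 50 kb flanks Dlx3-Dlx4 had 9 consensus sites and Dlx5-Dlx6 stood at percentile 99.45. With 200 kb flanks Dlx3-Dlx4 had 47 sites (percentile 82.95) and Dlx5-Dlx6 39, and the percentiles of Dlx1-Dlx2 and Dlx5-Dlx6 were 88.91 and 74.13. Requiring overlap of at least 50% left 25 sites over Dlx1-Dlx2 and 23 over Dlx5-Dlx6, the second at percentile 89.23, and shares of replicate 1 peaks overlapping replicate 2 of 34.25%, 42.86% and 35.82% over Dlx1-Dlx2, Dlx3-Dlx4 and Dlx5-Dlx6. With the stronger 50% of peaks Dlx5-Dlx6 stood at percentile 81.95 with 80.65% of replicate 1 peaks shared, and 0% of 52 distal sites held TAATTA. Hotspots in place of peaks, where a wide hotspot joins many peaks, gave 15 sites (percentile 64.8) over Dlx1-Dlx2 with 72.55% shared, 17 (72.47) over Dlx5-Dlx6 and 16 (66.84) over Dlx3-Dlx4.
With 1 replicate left out, all merged sites of the other numbered 70 to 88 over Dlx1-Dlx2 (percentile 87.79 to 97.03), 33 to 118 over Dlx3-Dlx4 (54.34 to 95.36) and 62 to 102 over Dlx5-Dlx6 (92.71 to 93.54). Dlx3-Dlx4 thus did not have the fewest sites with hotspots, with 200 kb flanks or in replicate 2 alone. The cause was not tested for any of these changes. In alternatives added after seeing the data, sites with the higher signal in replicate 2 were counted where each replicate had only 1 peak. They numbered 19 within Dlx1-Dlx2 and 13 within Dlx5-Dlx6, with no share over all consensus sites computed. Within Dlx1-Dlx2 this dropped the sites with signals of 16 and 35 and of 24 and 46. All 14 sites within Dlx5-Dlx6 had 1 peak of each replicate, so that count could not change. By percentile within the list, 26 of 26 and 14 of 14 sites were higher in replicate 2, beside 70.6% of all consensus sites.
Unknown depth and 2 replicates limit every value above; a site absent from a list may be present below its threshold.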
